A study of Mus musculus with 8 samples.

Results

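Chemokines are small secreted proteins that direct the movement of white blood cells, and their receptors are membrane proteins that signal through inhibitory G proteins. In bone marrow, Cxcr4 holds progenitors and leukemia cells near stromal cells, Ccr2 lets monocytes leave into blood, and Cxcr2 does the same for neutrophils. Inflammatory ligands such as Ccl3 are made by myeloid cells themselves, so that a myeloid leukemia can carry both the signals and the receptors. Expression of 10 such genes, 6 receptors and 4 ligands, was examined in mouse MLL-AF9 leukemia. The 10 were chosen by name, with earlier results of these data known. Each of them was found among the 12823 rows of the count table and passed the filter on low counts. The receptors are Cxcr4, Ccr2, Ccr1, Cx3cr1, Cxcr2 and Ccrl2, and the ligands are Ccl9, Ccl3, Ccl4 and Ccl6.

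MLL-AF9 is a fusion oncogene that drives acute myeloid leukemia (AML), and it was introduced together with GFP into progenitors from mouse bone marrow. New AML was the GFP+ leukemia that arose in sublethally irradiated recipients of these progenitors. Aggressive AML is described as derived from the same GFP+ leukemia through 5 serial transplantations, which the study's methods place in non-irradiated recipients. RNA of GFP+ cells was sequenced in 4 libraries per group, labelled as biological replicates of bone marrow origin. By these descriptions both groups carry the same fusion and reporter and differ in passage and in the irradiation of the host. The labels give neither the age of the mice nor the sex of the transduced cells, and the study names male mice for this experiment and young adult mice throughout. The fusion was delivered by a retroviral MSCV vector in which a pgk promoter drives GFP, and whether the 4 libraries of a group came from cells of 1 clone is likewise not given. A batch that follows the group cannot be told apart from the group.

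Total counts lay between 7805544 and 9697777 per library, so that 3 counts correspond to 0.308 to 0.389 CPM, a unit that scales the count of a gene by its library's total and a TMM (trimmed mean of M values) factor. Leukemia markers were present in every library, with Mpo at 2399 CPM in new AML and 2092 CPM in aggressive AML and Hoxa9 at 301 and 322 CPM. Of the 10 leukemia markers 3 rose (Kit, Meis1 and Mef2c, by 0.65, 0.45 and 0.62 on the log2 scale) and 2 fell (Hoxa10 and Itgam, by 0.59 and 0.61), while Cd34, a marker of immature cells, had a log2 fold change of -0.16 and was not called. Over all tested genes 8.15% were called higher and 10.2% lower. The 4 Y-linked genes Ddx3y, Eif2s3y, Kdm5d and Uty together held 251 to 287 CPM in new AML and 0 counts in each aggressive AML library, a difference that the labels do not mention. A different origin or sex of the cells in the groups cannot be told apart from the passage. On the second principal component aggressive AML replicate 3 stood apart at -26.1, against 4.51 to 13.6 for the other 3 libraries of its group, and results that rest on it are given without it as well.

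The sequences upstream of 4 of these genes are printed because they cover a receptor that fell, a receptor whose change depended on 1 library, the receptor whose libraries lay higher in aggressive AML and the most abundant ligand. Sequences are those of RefSeq on GRCm38.p6, 5′ to 3′ along the gene's own strand, and they end just before the first annotated exon. The coordinates are chr9:123968693-123968942 for Ccr1, chr1:128592300-128592549 for Cxcr4, chr9:111057520-111057768 for Ccrl2 and chr11:83578637-83578886 for Ccl9, all on the minus strand. Capitals mark the letters of the motifs described with the promoters.
Ccr1: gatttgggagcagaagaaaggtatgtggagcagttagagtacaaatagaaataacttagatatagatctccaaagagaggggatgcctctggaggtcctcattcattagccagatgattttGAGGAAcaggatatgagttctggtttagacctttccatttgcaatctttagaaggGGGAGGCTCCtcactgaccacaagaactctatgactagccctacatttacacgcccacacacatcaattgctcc
Cxcr4: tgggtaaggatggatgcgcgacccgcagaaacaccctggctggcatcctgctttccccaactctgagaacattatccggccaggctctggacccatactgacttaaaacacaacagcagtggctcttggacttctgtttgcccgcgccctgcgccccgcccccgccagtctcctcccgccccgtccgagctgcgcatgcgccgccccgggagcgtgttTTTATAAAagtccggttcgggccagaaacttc
Ccrl2: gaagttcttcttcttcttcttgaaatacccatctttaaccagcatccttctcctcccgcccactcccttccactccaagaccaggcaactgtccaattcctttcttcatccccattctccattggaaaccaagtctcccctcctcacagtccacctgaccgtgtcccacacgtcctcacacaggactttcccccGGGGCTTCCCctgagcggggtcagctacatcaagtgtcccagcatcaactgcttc
Ccl9: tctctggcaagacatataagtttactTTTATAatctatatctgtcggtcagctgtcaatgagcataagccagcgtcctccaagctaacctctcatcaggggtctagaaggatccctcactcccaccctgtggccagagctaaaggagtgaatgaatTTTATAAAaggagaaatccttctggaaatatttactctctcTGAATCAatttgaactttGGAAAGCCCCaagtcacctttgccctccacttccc

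The comparison asked how the leukemia cells of aggressive AML differ from those of new AML. Among the receptors Ccr2, Cx3cr1 and Ccr1 fell in aggressive AML, Cxcr4 and Cxcr2 lay lower without passing the test, and Ccrl2 lay higher without passing it. None of the 4 ligands passed the test. Of the 10 genes, 3 (all lower) had an adjusted p under 0.05 in edgeR's quasi-likelihood test with Benjamini-Hochberg adjustment over 12494 tested genes, against 18.4% of all tested genes in either direction and 10.2% lower. An unadjusted p under 0.05 was found for 5 of the 10 and for 4070 of the 12494 tested genes. The median log2 fold change, aggressive over new AML, was -0.57 over the 6 receptors, -0.04 over the 4 ligands and 0.00044 over all tested genes. The difference between receptors and ligands was not tested. The CPM ranges of the groups did not overlap in 4 of the 10 genes (Ccr2, Cx3cr1, Cxcr2 and Ccrl2), against 21.8% of all tested genes. The 3 that lay lower compare with 12% of all tested genes, and the 1 that lay higher compares with 9.76%.

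**Figure D1:**
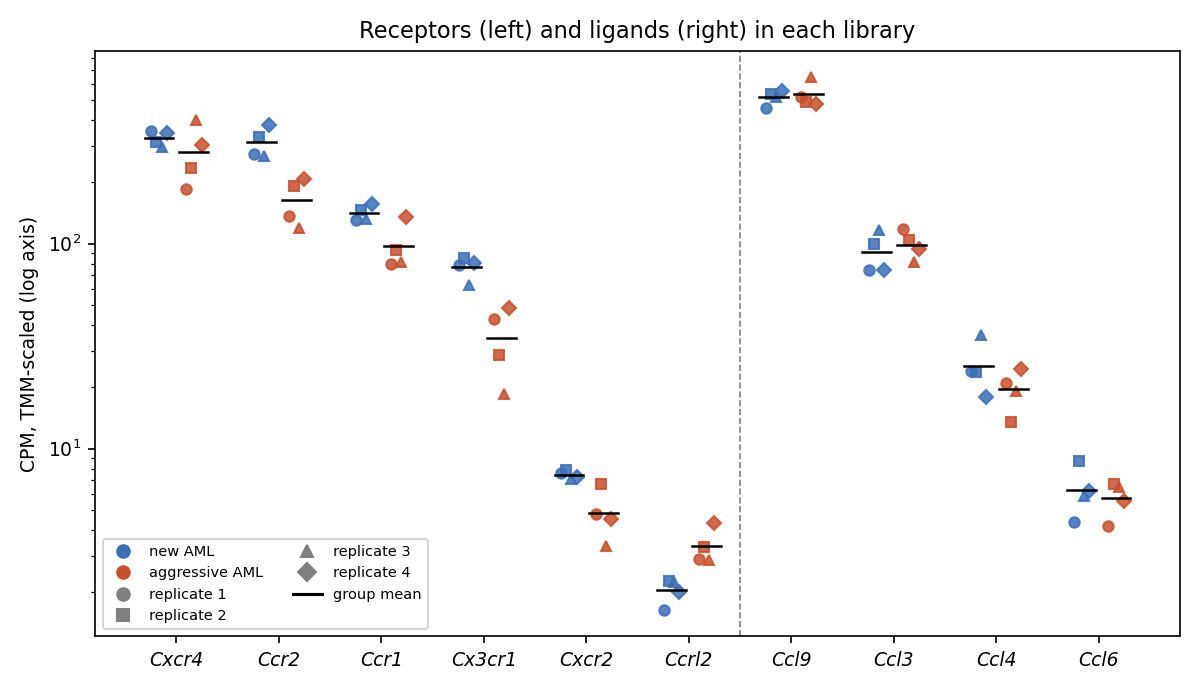
CPM (TMM-scaled, log axis) of the 6 receptors on the left and the 4 ligands on the right in each library, with blue symbols for new AML, orange symbols for aggressive AML, 1 symbol shape per replicate number and a line at each group's mean (n = 4). All 4 aggressive AML libraries lie below the 4 new AML libraries in Ccr2, Cx3cr1 and Cxcr2 and above them in Ccrl2, whereas the groups overlap in every ligand.

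Ccr2, the receptor for Ccl2 that lets monocytes leave the marrow, was lower in each aggressive AML library. It measured 274, 331, 267 and 380.5 CPM in new AML replicates 1 to 4 and 136, 192, 119.7 and 207 CPM in aggressive AML replicates 1 to 4. The highest aggressive library thus lay below the lowest new one. The mean fell 1.91-fold, from 313 ± 53.2 to 164 ± 42.3 CPM (SD, n = 4), and the log2 fold change was -0.93 (SE 0.16, edgeR adjusted p = 0.00072). Without aggressive AML replicate 3, the lowest library, it was -0.81 (adjusted p = 0.00097). The gene lies on chromosome 9 (124101950 to 124113557, GRCm38, plus strand), and 1.91% of the 50-base stretches of its transcripts also occur in other genes, so that a small share of its reads is uncertain.

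Cx3cr1, the receptor for the membrane-bound chemokine fractalkine and a gene of monocytes and macrophages, had the largest fold change among the 10 genes. New AML replicates 1 to 4 held 78.5, 85.4, 62.9 and 80.9 CPM, and aggressive AML replicates 1 to 4 held 43.0, 28.6, 18.5 and 48.8 CPM. The groups did not overlap, and the aggressive libraries spread more widely than the new ones. The mean fell from 76.9 ± 9.77 to 34.7 ± 13.7 CPM, and the log2 fold change was -1.14 (SE 0.21, adjusted p = 0.0015). Without aggressive AML replicate 3 the log2 fold change was -0.93 (adjusted p = 0.00054). Cx3cr1 lies on chromosome 9 (119901616 to 120069879, minus strand) and shares 78 exon bases with the antisense gene Gm33858, and since the strand setting of the counting is not given, reads from both cannot be told apart there. Gm33858 measured 1.14 CPM in new AML and 2.94 CPM in aggressive AML.

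Ccr1 is a receptor for Ccl3, Ccl6 and Ccl9, so that 3 of the 4 ligands here can act on it. It measured 130.2, 147, 132 and 156 CPM in new AML and 79.7, 93.3, 81.8 and 136 CPM in aggressive AML, replicates 1 to 4 in order. Aggressive replicate 4 lay within the range of new AML, and the other 3 lay below it. The mean fell from 141 ± 12.4 to 97.6 ± 26.0 CPM, and the log2 fold change was -0.53 (SE 0.14, adjusted p = 0.015). The call was lost when aggressive replicate 1 was left out (-0.45, adjusted p = 0.0505) and kept when replicate 3 was left out (-0.45, adjusted p = 0.0345). Ccr1 lies on chromosome 9 (123962124 to 123968692, minus strand), and its start is 133 kb from that of Ccr2.

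Cxcr4, the receptor for Cxcl12 made by marrow stroma, was the most abundant receptor per length. Its levels were 355, 312, 295 and 348 CPM in new AML, and 185, 233, 403 and 304 CPM in aggressive AML. Aggressive replicate 3 was the highest of all 8 libraries and replicate 1 the lowest, and the SD was 28.9 CPM in new AML and 94.9 CPM in aggressive AML around means of 327 and 281 CPM. The log2 fold change was -0.22 (SE 0.17, adjusted p = 0.39). It depended on aggressive replicate 3: when that library was left out it was -0.44 (adjusted p = 0.027), and in limma-voom with array weights, which gives less weight to libraries that stand apart, it was -0.39 (adjusted p = 0.038). When replicate 1 was left out it was -0.06 (adjusted p = 0.80). The gene lies on chromosome 1 (128588199 to 128592293, minus strand).

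Cxcr2, the neutrophil receptor for Cxcl1 and Cxcl2, was low in both groups. New AML held 7.59, 7.85, 7.14 and 7.24 CPM, and aggressive AML held 4.82, 6.71, 3.37 and 4.55 CPM. The groups did not overlap, but the log2 fold change of -0.61 (SE 0.22) had an adjusted p of 0.064. It passed the threshold in 2 of 18 alternatives. These were the fit without aggressive AML replicate 2, the highest of its group (-0.81, adjusted p = 0.028), and limma on log2(CPM + 1) (-0.56, adjusted p = 0.045). Without aggressive AML replicate 3, the lowest of its group, the log2 fold change was -0.47 (adjusted p = 0.13). In Cxcr2 6.68% of the 50-base stretches also occur in other genes, the largest share among the 10.

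Ccrl2 is an atypical receptor that binds the attractant chemerin and does not signal through G proteins. It had the lowest counts of the 10 genes, with 16, 19, 20 and 18 counts in new AML and 24, 28, 22 and 38 in aggressive AML. These correspond to 1.64, 2.26, 2.23 and 2.01 CPM against 2.89, 3.30, 2.85 and 4.32 CPM, so that every aggressive library lay above every new one. The log2 fold change was 0.72 (SE 0.28, adjusted p = 0.085), and over 18 alternatives the adjusted p stayed between 0.061 and 0.20. At 16 to 38 counts per library the precision of this value is limited.

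**Figure D2:**
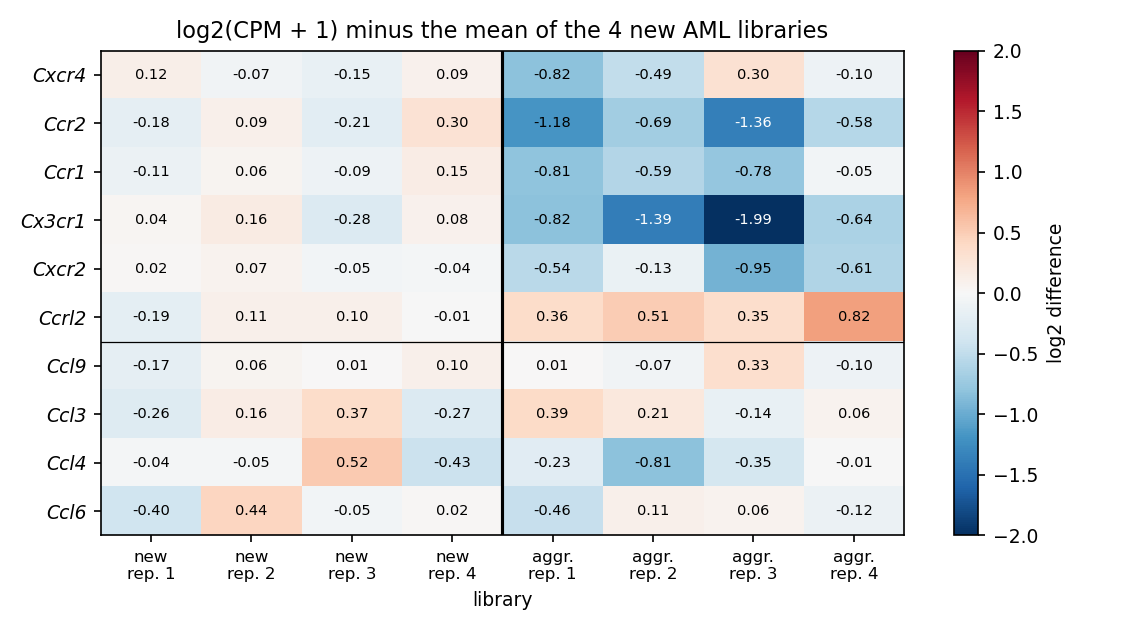
Each cell is the log2(CPM + 1) of a gene in a library minus the mean of the 4 new AML libraries, with receptors above the line and ligands below it, blue for lower and red for higher values. Ccr2 and Cx3cr1 are below the new AML mean in each aggressive library, while aggressive replicate 3 is above it in Cxcr4 and Ccl9.

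The libraries of aggressive AML did not rank alike across receptors. Replicate 3 was the lowest of its group in Ccr2, Cx3cr1 and Cxcr2 and the highest in Cxcr4, and replicate 4 was the highest in Ccr2, Cx3cr1, Ccr1 and Ccrl2. The summed level of the 6 receptors was 766 to 974 CPM in new AML and 451 to 704 CPM in aggressive AML, without overlap. Ccr2 and Cxcr4, of which Cxcr4 was not called, made up most of this sum. Fewer cells of a type and less RNA per cell cannot be told apart in such bulk samples.

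The ligands showed no call, and 0 of the 4 had an unadjusted p under 0.05. With the other tools run (DESeq2, limma and limma-voom) 0 were called as well. Their summed level was 559 to 677 CPM in new AML and 603 to 754 CPM in aggressive AML, with overlapping ranges. All 4 lie on chromosome 11, where the starts of Ccl6 and Ccl9 are 14.5 kb apart, those of Ccl3 and Ccl4 13.2 kb apart, and those of Ccl3 and Ccl9 70.7 kb apart.

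Ccl9, a mouse chemokine that attracts cells with Ccr1, was, per length, the most abundant ligand. It measured 457, 537, 519 and 552 CPM in new AML and 519.7, 491, 647 and 479.7 CPM in aggressive AML. The groups overlapped, with aggressive replicate 3 above the rest. The means were 516 ± 42.05 and 534 ± 77.1 CPM (log2 fold change 0.05, SE 0.10, adjusted p = 0.76), and the sign turned without that library (-0.05).

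Ccl3, also called MIP-1 alpha, is a ligand of Ccr1. It measured 74.7, 99.98, 116 and 74.3 CPM in new AML and 117, 104, 81.1 and 93.6 CPM in aggressive AML. Its log2 fold change was 0.12 (SE 0.14, adjusted p = 0.60), smaller than the spread between libraries.

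Ccl4, or MIP-1 beta, is an inflammatory chemokine that attracts monocytes and lymphocytes. New AML held 23.8, 23.8, 35.7 and 17.9 CPM and aggressive AML 20.8, 13.5, 19.0 and 24.5 CPM, and the log2 fold change was -0.38 (SE 0.20, adjusted p = 0.21), or -0.16 without new AML replicate 3. That library was the highest of its group in both Ccl3 and Ccl4. In RefSeq the spans of Ccl3 and Ccl4 overlap, and in GENCODE the genes lie on opposite strands. No stretch of 50 bases was shared between their GENCODE transcripts, and the annotation that was counted is not given.

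Ccl6, another ligand of Ccr1, was the least abundant ligand per length. Its levels were 4.41, 8.68, 5.91 and 6.24 CPM in new AML and 4.22, 6.71, 6.48 and 5.58 CPM in aggressive AML. The log2 fold change was -0.13 (SE 0.24, adjusted p = 0.74), and the sign turned without new AML replicate 2 (0.06).

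**Figure D3:**
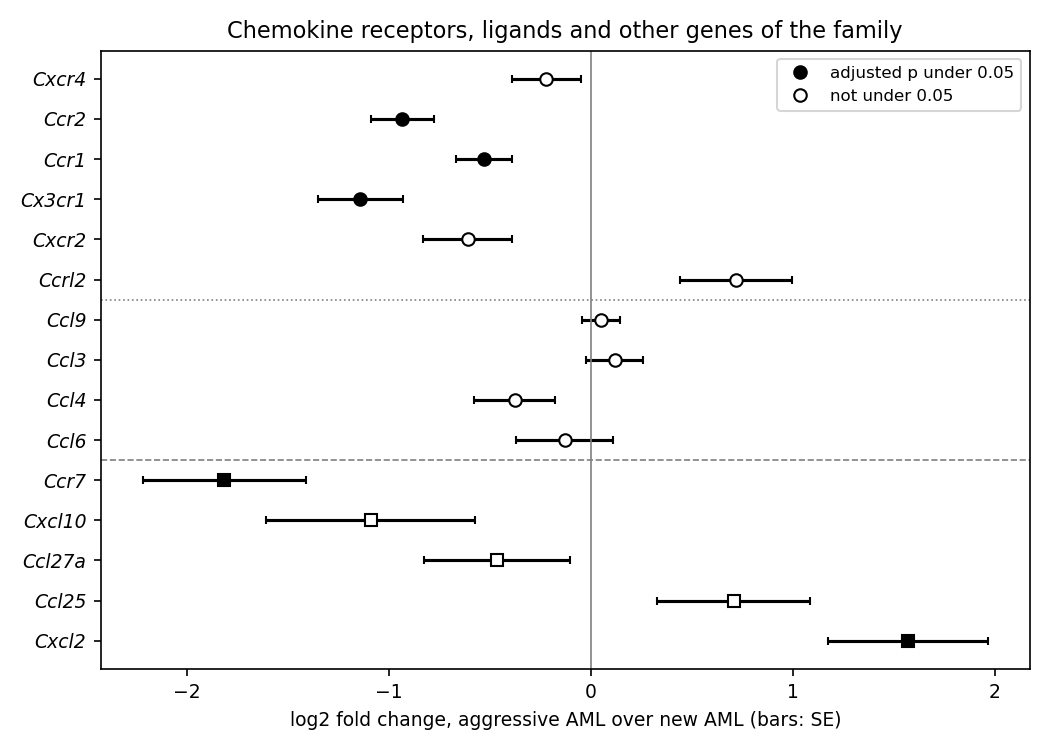
Log2 fold change of aggressive over new AML with its standard error for the receptors, the ligands and, as squares, other chemokine genes in the table. Filled symbols have an edgeR adjusted p under 0.05: Ccr2, Ccr1, Cx3cr1 and Ccr7 lie below 0 and Cxcl2 lies above it.

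To compare levels between genes, CPM was divided by the length of the longest annotated transcript in kilobases. In new AML the order was Cxcr4 (181 CPM per kb), Ccl9 (172), Ccl3 (119), Ccr2 (54.7), Ccr1 (49.8), Ccl4 (38.3), Cx3cr1 (17.1), Ccl6 (4.38), Cxcr2 (2.45) and Ccrl2 (0.83). The ranges over libraries overlapped for Cxcr4 and Ccl9, for Ccr2 and Ccr1 and for Ccr1 and Ccl4, while the other neighbours in this order were apart. In aggressive AML, Ccl9 (178 CPM per kb) came first, before Cxcr4 (156) and Ccl3 (129). The range of Cxcr4 overlapped those of both, while Ccl9 lay above Ccl3 in every library. Ccr2 stood sixth there with 28.6 CPM per kb, after Ccr1 (34.4) and Ccl4 (29.5), again with overlapping ranges. With the union of all annotated exons as the length, Ccr2 (46.3 CPM per kb) came after Ccr1 in new AML as well.

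**Figure D4:**
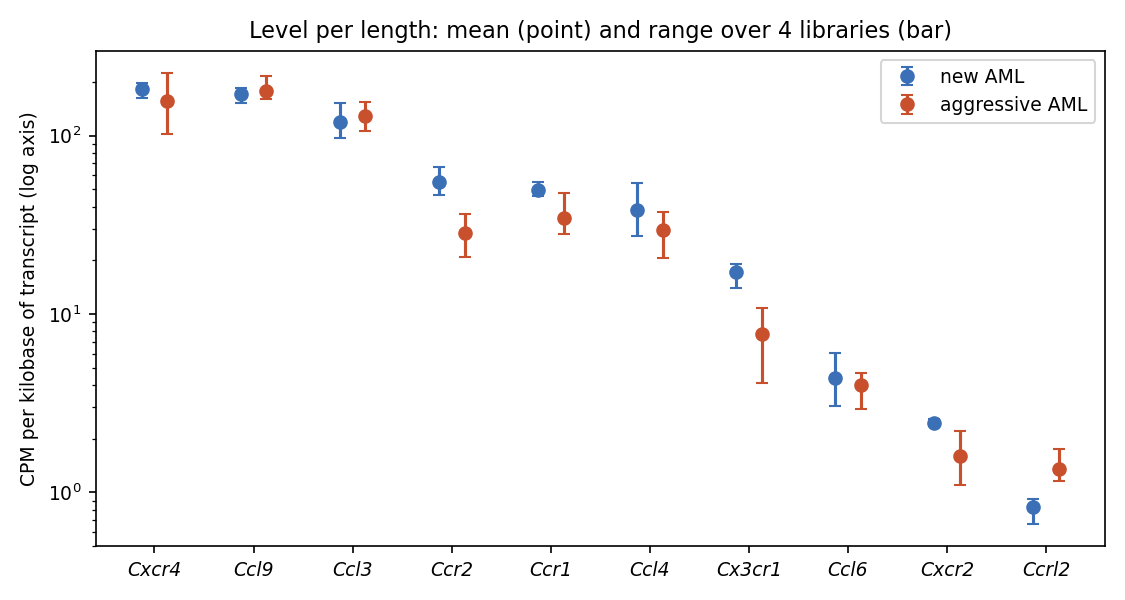
CPM per kilobase of the longest transcript (log axis) for the 10 genes, with the mean as a point and the range over 4 libraries as a bar in new AML (blue) and aggressive AML (orange). Cxcr4, Ccl9 and Ccl3 lie above 100 CPM per kb on average in both groups, and Ccrl2 lies lowest.

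A further 6 chemokine genes were in the table, each low, and 2 of them changed in opposite directions. Among all tested genes 18.4% were called in either direction. Ccr7, which guides dendritic cells and lymphocytes to lymph nodes, had 30, 15, 22 and 19 counts in new AML and 2, 6, 8 and 6 counts in aggressive AML. It fell from 2.36 ± 0.55 to 0.67 ± 0.33 CPM (log2 fold change -1.82, SE 0.40, adjusted p = 0.0056). Cxcl2, a ligand of Cxcr2, had 8, 8, 18 and 9 counts in new AML and 19, 51, 26 and 23 in aggressive AML. It rose from 1.196 ± 0.55 to 3.57 ± 1.69 CPM (log2 fold change 1.57, SE 0.39, adjusted p = 0.012). When aggressive replicate 2 was left out, the value was 1.195 and the call was lost (adjusted p = 0.053). The others did not pass. Among them the log2 fold changes were -1.09 for Cxcl10, -0.47 for Ccl27a and 0.71 for Ccl25. In Cxcl10, an interferon-induced ligand, the value ranged from -1.74 to -0.49 when single libraries were left out, and it passed the test without aggressive AML replicate 1.

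Genes that carry the signal inside the cell were examined as a list of 41 tested genes, chosen with earlier results of these data known. Of these, 18 were lower and 1 higher in aggressive AML, against 10.2% lower and 8.15% higher among all tested genes. The median log2 fold change was -0.18, and 31 of the 41 lay below 0. Rgs1, an inhibitor of G protein signalling, has no row in the table. When single libraries were left out, 14 to 19 of the list passed the test.

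Among the G proteins, which pass the signal on from the receptor, the gamma subunit Gng2 had the largest change. It measured 73.2, 99.6, 92.1 and 103 CPM in new AML and 44.9, 37.1, 52.3 and 45.1 CPM in aggressive AML, without overlap. Gng2 fell by 1.04 on the log2 scale (SE 0.12, adjusted p = 3.92e-05). The inhibitory alpha subunits went in opposite directions: Gnai3 rose from 274 ± 14.5 to 349 ± 32.2 CPM (0.35, adjusted p = 0.0057), and Gnai2 fell from 832 to 708 CPM (-0.23, adjusted p = 0.033). The calls of Gnai2 and of the beta subunit Gnb2 (-0.21, adjusted p = 0.044) were kept in 3 and 1 of the 8 fits that left out a library.

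Among the kinases and arrestins of the list that switch receptors off, only Adrbk2 and Arrb1 were called, both lower. Adrbk2, listed today as Grk3, a kinase that phosphorylates active receptors, had 150, 125, 97 and 170 counts in new AML and 1, 1, 6 and 0 counts in aggressive AML. The fitted difference of -5.88 on the log2 scale (adjusted p = 4.72e-07) rests on these few counts and became -7.34 without aggressive AML replicate 3. Arrb1, an arrestin, fell from 58.5 to 38.1 CPM (-0.62, adjusted p = 0.0021), whereas Arrb2 measured 101 and 91.7 CPM (-0.14, adjusted p = 0.44). The regulators Rgs2 and Rgs18, which shorten G protein signals, fell by 0.71 and 0.73 on the log2 scale, and the other Rgs genes tested were not called.

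Enzymes further downstream were lower in part as well. Pik3r5, a regulatory subunit of the PI3 kinase that G proteins activate, measured 26.7, 25.3, 25.0 and 28.6 CPM in new AML and 8.67, 11.9, 6.61 and 10.01 CPM in aggressive AML. The mean of Pik3r5 fell from 26.4 ± 1.66 to 9.30 ± 2.23 CPM (adjusted p = 1.54e-05), and its catalytic partner Pik3cg had a log2 fold change of -0.05 (adjusted p = 0.75). Pik3cd fell by 0.66, the phospholipases Plcb2 and Plcb3 by 0.37 and 0.69, and the Rac activator Prex1 by 0.57.

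The Src family kinases Fgr and Lyn, active in myeloid cells, fell by 1.17 and 0.35 on the log2 scale, and the call of Fgr was lost without new AML replicate 4 (adjusted p = 0.055). Was, Vav1 and Tln1, which act on the cytoskeleton and on adhesion, had log2 fold changes of -0.25, -0.22 and -0.24, and their calls were kept in 4, 1 and 2 of the 8 fits that left out a library. Rac2, Dock2, Elmo1 and Coro1a, central to cell migration, were not called.

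**Figure D5:**
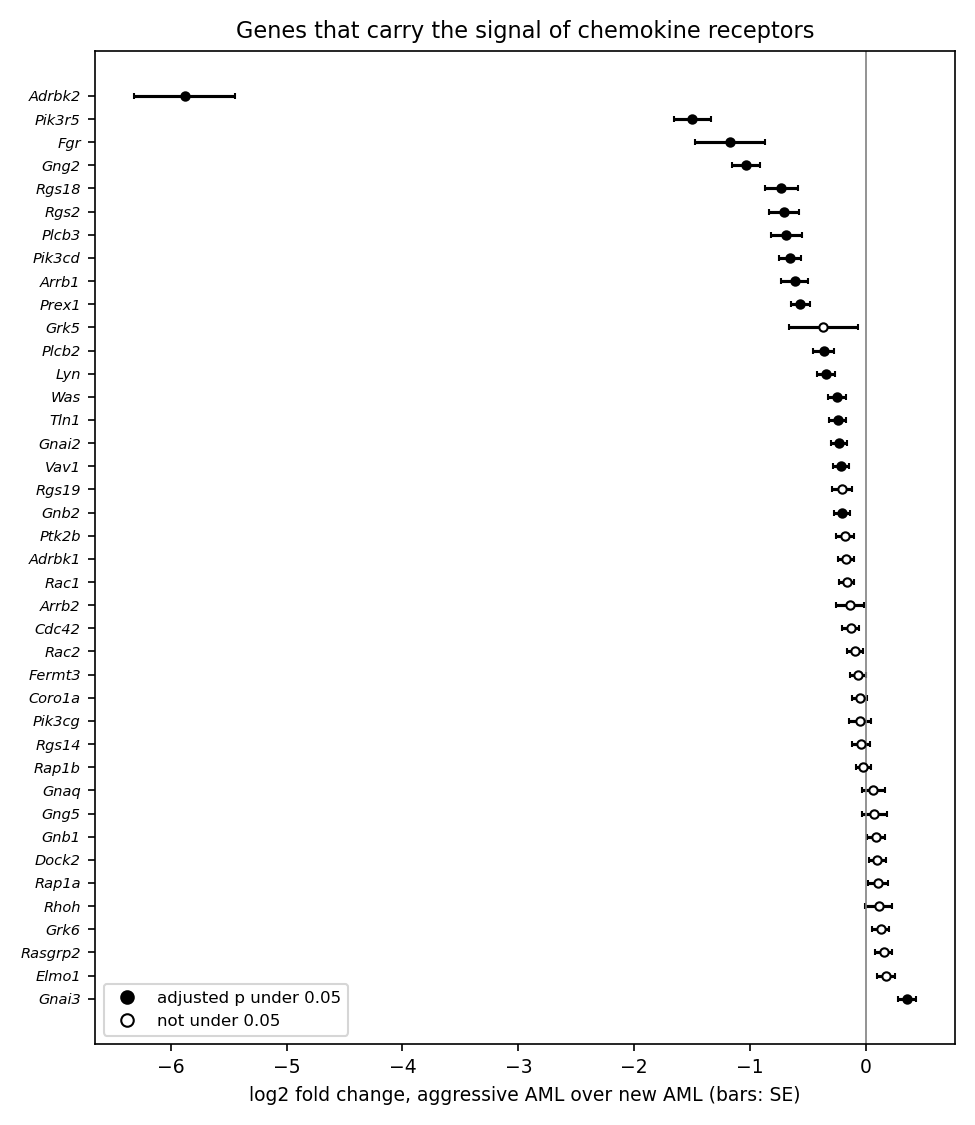
Log2 fold change of aggressive over new AML with its standard error for genes of the signalling list, ordered by value, with filled points for an edgeR adjusted p under 0.05. Filled points on the left run from Adrbk2 at -5.88 to Gnb2 at -0.21, and Gnai3 at 0.35 is the single filled point to the right of 0.

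Several of these receptors mark mature myeloid cells, and some, but not all, other markers of those cells fell as well. The counts below compare with 10.2% lower and 8.15% higher among all tested genes. With Ccr2 and Cx3cr1 left out, the 8 monocyte markers tested included 4 that fell (Csf1r, Fn1, F13a1 and Ms4a6c) and 0 that rose, with summed levels of 2777 to 3464 CPM in new AML and 2548 to 2749 CPM in aggressive AML. Csf1r, the receptor for the macrophage growth factor, fell from 166 to 51.2 CPM. Ly6c2, the largest part of the monocyte sum in each library, measured 1727 and 2067 CPM (adjusted p = 0.13). With Cxcr2 left out, 9 of 11 neutrophil markers fell and 0 rose, with summed levels of 433 to 608.5 CPM and 226 to 287.5 CPM, and Stfa2, Fpr1 and Il1b have no row. Among 4 macrophage markers only Adgre1 was called, lower, at summed levels of 82.9 to 145.5 and 56.0 to 90.8 CPM, and C1qa, C1qb, Mertk, Cd5l and Spic have no row. Of 7 dendritic cell markers 3 fell (Cd74, Itgax and Siglech) and 0 rose. The means of these 3 went from 11.8 to 1.13, from 40.2 to 10.7 and from 5.58 to 0.45 CPM, in that order. Sums of all 7 were 540.2 to 762 and 640 to 832 CPM, with overlapping ranges. A marker that was not called made up most of this sum in each library. The part of these cell types in the fall of Ccr2, Cx3cr1 and Ccr1 was not tested.

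Markers of lymphoid and other cells were examined likewise, beside the same shares over all tested genes (10.2% lower and 8.15% higher). T cells had 1 marker with a row, at 1.45 to 3.18 CPM in new AML and 3.77 to 6.22 CPM in aggressive AML, and the defining genes Cd3d, Cd3e, Cd3g, Cd4 and Cd8a have none. NK cells likewise had 1 marker with a row, at 11.1 to 22.2 and 19.95 to 29.9 CPM, and both of these single markers rose. Of 9 erythroid markers tested 3 fell, with summed levels of 142 to 229 CPM in new AML and 121 to 156 CPM in aggressive AML. Of 5 basophil and mast cell markers 1 rose, with summed levels of 141 to 181 and 203 to 223 CPM. Of the 2 B cell markers and 1 megakaryocyte marker tested by edgeR 0 were called, with an unadjusted p under 0.05 for 0 and 1 of them.

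Other genes near these 10 on the chromosome did not share a direction. With the 10 themselves left out, 25 tested genes had a start within 200 kb of one of their starts. Of these 25, 3 rose and 3 fell, with a median log2 fold change of -0.00073, against 8.15% higher and 10.2% lower among all tested genes. Among the 10, Ccr1 and Ccr2 lie within that distance of each other and both fell, and the 4 ligands lie within it and were not called. Ltf, a neutrophil granule gene 38248 bases from Ccrl2, fell from 31.0 to 3.68 CPM, and Als2cl, near the same gene, rose from 2.34 to 5.74 CPM. Wfdc17, in the neighbourhood of all 4 ligands, fell from 79.0 to 40.9 CPM, and Tns1 near Cxcr2 fell from 38.9 to 10.5 CPM. Rpsa near Cx3cr1 and 1700020L24Rik near Ccl9 rose by 0.22 and 0.37 on the log2 scale.

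Promoter windows of 300 bases (250 before and 50 after the RefSeq start) were at hand for 9 of the 10 genes, in 11 windows, and were searched on both strands for 7 motifs. TATAAA, the sequence of a TATA box, was in the windows of Ccl9 and Cxcr4 and in 13.6% of 32851 mouse windows. In Cxcr4 it lay at -30 to -25 from the start and in Ccl9 at -92 to -87, each time overlapping its own reverse complement. The reverse complement also lay at -224 to -219 in Ccl9. The NF-kB consensus, bound by a factor of inflammatory signalling, was in the windows of Ccl9 (-35 to -26), Ccr1 (-74 to -65) and Ccrl2 (-56 to -47), and in 8.46% of all windows. GAGGAA, the core bound by PU.1, a factor of myeloid cells, was in those of Ccl3, Ccr1 and Cxcr2, in Ccr1 at -129 to -124, and in 28.3% of all. TGANTCA, the AP-1 site, was in that of Ccl9 (-53 to -47) and in 7.81% of all. TTGCNNAA for C/EBP factors, the interferon-stimulated response element and TTCNNNGAA for STAT factors, found in 10.8%, 3.44% and 8.30% of all windows, were in none of the 11. The windows of Ccr1 and Ccl9 held 44% and 43.7% G and C, that of Cxcr4 59.3%, and the median of all windows was 52.7%.

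The genes whose log2(CPM + 1) followed Cxcr4 and Ccl9 most closely over the 8 libraries, among 9288 genes, are given as a description. For Cxcr4 these were Tlr6, Pik3r1 and Med7, with Pearson correlations of 0.978, 0.976 and 0.960, and for Ccl9 they were Nxt2, Sf3b1 and 2810021J22Rik, with 0.962, 0.951 and 0.950. As the highest of 9288 values over 8 libraries these correlations were selected for their height, and shared regulation was not tested. Whether the 8 libraries were prepared together is not given. Aggressive AML replicate 3, which stood apart, is among the 8 points, and none of these 6 genes was called between the groups.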

How the data were processed

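Polyadenylated RNA of GFP+ leukemia cells was sequenced from both ends in 8 libraries, 4 per group, and groups and replicate numbers were read from the sample titles. The authors aligned reads to mm10 with HISAT2, used Rsubread for counts per gene and dropped genes under 1 CPM. The annotation and strand setting are not given in the sources used here. Although the deposited file carries CPM in its name, its values are whole numbers whose totals differ between libraries, and they were used as raw counts.

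The main test was edgeR (version 4.0.16, R 4.3.3), quasi-likelihood, two-sided, on the deposited counts with TMM factors and the group as the single term, over the 12494 genes that reached 1 CPM in 4 or more libraries (329 rows left out, 1 of the 12823 rows repeating a name). Benjamini-Hochberg adjustment over all tested genes and a threshold of 0.05 gave the calls. The study's own test, limma on log2 CPM, is among 19 alternatives, with limma 3.58.1 and DESeq2 1.42.0. CPM values are TMM-scaled means ± SD over 4 libraries, and intervals were not attached because replicates give the error. The p-values measure the spread between libraries, which the titles call biological replicates and the study describes as 4 per group from male mice. How far separate series of transplantations would differ is not measured, since the study describes a single series leading to aggressive AML. Any pair of replicates differed by more than sampling noise (chi-square per gene 4.06 to 11.01). On simulated data for this comparison (12494 genes, 200 changed by 1 on the log2 scale) the test recovered 99% of changed genes with 9 false calls. The changed genes were drawn only from those above a minimum mean count, which Ccrl2 does not reach. Recovery of genes with few counts or with smaller changes was therefore not measured.

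Positions and transcript lengths came from GENCODE M21 on GRCm38, the build called mm10, in which 92.5% of the table's symbols were found, and promoter sequences came from RefSeq on GRCm38.p6. The members and lists were chosen with earlier results of these data known. Named are all members, every called gene of the other chemokine genes and the signalling list, called neighbours within 200 kb, defining markers, and the 3 genes with at least 10 CPM that correlate best with the most abundant receptor and ligand per length. Values of genes outside these rules (Arrb2, Pik3cg, Rac2, Dock2, Elmo1, Coro1a, the uncalled chemokine genes and Gm33858) are given beside the called ones and were chosen after they had been seen. Some genes of the lists are not reported here by name or in the plots, while the counts of calls, medians and sums cover the whole lists.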

Additional observations from a re-analysis of the deposited data

Results flagged for a closer look

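Within a group of 4, a library was looked at again where its gap to the nearest of the other 3 took up most of the group's range (Dixon's test). This was done for 33 genes, from the members, the other chemokine genes and the called signalling genes, in both groups. Of 66 pairs of gene and group 6 stood out, where chance gives about 1 in 20, or 3.3. None of the 6 was a member. New AML replicate 3 was high in Cxcl2, at 2.01 CPM against 0.82 to 1.00 CPM in the other 3, and in Cxcl10, at 5.24 CPM against 1.45 to 2.05 CPM, and low in Prex1, at 185 CPM against 221 to 223 CPM. Aggressive AML replicate 3 was high in Gnai2, at 749 CPM against 693 to 695 CPM, and in Adrbk2, at 0.78 CPM against 0 to 0.12 CPM. New AML replicate 1 was high in Gnb2, at 451 CPM against 418 to 419.6 CPM.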

How the results depend on the processing

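Ccr2 and Cx3cr1 kept their direction and call in all 19 alternatives, and Ccr1 in 18, with the exception named in the report. The number of members called was 2 to 4, of the other chemokine genes 0 to 3, of the signalling genes 14 to 22 and of all tested genes 1534 (without new AML replicate 2) to 3122 (limma-voom with array weights). With a filter of 10 CPM, 0 of the other 6 chemokine genes were called, since none of them passed it, and when single libraries were left out 1 to 3 were called, with 1 without aggressive AML replicate 2. Ccl9 turned sign to -0.029 with array weights, to -0.0050 without new AML replicate 1 and to -0.053 without aggressive AML replicate 3, within a range of -0.053 to 0.10 when single libraries were left out. Ccl6 turned sign to 0.059 without new AML replicate 2 (-0.27 to 0.059). Neither was called under any alternative. Ccl6, Ccrl2 and Cxcr2 do not reach the filter of 10 CPM and have 18 alternatives each. Other scalings moved the median of all genes by at most 0.018. Dividing by the union of exons in place of the longest transcript moved the level of each member in new AML by less than its SD. Same-numbered libraries correlated at 0.097, -0.040, -0.065 and 0.20 after removal of group means, so the numbers were not taken to pair the samples. With a replicate block the test called 3 members, 2 other chemokine genes, 19 signalling genes and 2367 genes in all. Depth limits Ccrl2, Ccr7, Cxcl2 and Cxcl10, which rest on 2 to 51 counts per library.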
